A study of Homo sapiens with 6 samples.

Results

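CAMK2N1, the gene of a small protein that inhibits calcium/calmodulin-dependent kinase II (CaMKII), was measured here together with its relative CAMK2N2 and the 4 genes of the CaMKII subunits, CAMK2A, CAMK2B, CAMK2D and CAMK2G. These 6 genes were taken as a family. CAMK2N1 was chosen on its rise after TCTP siRNA in this same comparison, so that its change is described without a test, and the other members were added by name as its relatives and its targets. Of the 18665 genes named on the array 5 of the 6 members had a probe, with 8 probes in all, and 2 of the 8968 genes tested were members. No probe was listed for CAMK2B, which was not analysed here.

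The cells were LNCaP, an androgen-responsive line established from a lymph node metastasis of prostate cancer, grown and seeded in serum-containing medium, which the methods say was changed for medium free of serum before transfection with Oligofectamine. A set of 3 samples received siRNA against TCTP and 3 received siRNA against luciferase (Luc), which human cells do not encode, each at 100 nM for 72 h. Each group received 1 siRNA sequence, so that an effect of TCTP loss and an effect of the TCTP siRNA sequence cannot be told apart. Neither can a rise after TCTP siRNA and a fall after Luc siRNA. RNA from each sample was hybridised to 1 Illumina HumanWG-6 v3 array, which measured 48803 probes. Array medians ran between 35.6 and 39.8 intensity units after TCTP siRNA and between 38.0 and 43.4 after Luc siRNA. A probe is called detected here where its detection p, the chance of such a signal from background alone, was under 0.01, which held for 12828 to 13741 probes on an array. TPT1, which encodes TCTP, was 59.6% of its Luc siRNA signal on the probe ILMN_1789614 (adjusted p = 0.00331 from limma over all detected probes) and 87.7% on the probe ILMN_2094718 (adjusted p = 0.433 from limma). The latter probe was among the brightest of every array, at percentile 99.9 to 100, and why the TPT1 probes differ was not tested. Of 9 luminal prostate markers, 7 had a probe and all 7 were detected on every array. The 2 basal, 3 fibroblast and 3 leukocyte markers with a probe were detected on none.

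CaMKII is a serine/threonine kinase built from many subunits arranged in a ring. When calcium rises, calmodulin loaded with calcium binds the regulatory segment of a subunit and frees its catalytic site, and subunits then phosphorylate each other, which keeps the kinase active after calcium has fallen. CAMK2A and CAMK2B are expressed mainly in neurons, while CAMK2D and CAMK2G are found in most tissues. CAMK2N1 and CAMK2N2 encode the CaMKII inhibitor proteins, which were first described from rat brain. They bind the activated kinase at its substrate site and do not block the related kinases CaMKI and CaMKIV. CAMK2N1 has been described as restraining the growth of prostate cancer cells.

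Among the inhibitors, CAMK2N1 was higher on every array of TCTP siRNA than on any array of Luc siRNA. On its probe, ILMN_1794863, the deposited intensities were 1891, 1879 and 2306 units after TCTP siRNA and 742, 706 and 653 units after Luc siRNA. After quantile normalization, which gives all arrays the same distribution of signal, the CAMK2N1 signals were 10.92, 11.05 and 11.02 log2 after TCTP siRNA and 9.38, 9.45 and 9.47 log2 after Luc siRNA. The lowest array of TCTP siRNA thus lay 1.45 log2 units above the highest array of Luc siRNA. CAMK2N1 averaged 10.997 ± 0.068 log2 after TCTP siRNA and 9.433 ± 0.049 log2 after Luc siRNA (SD, n = 3 each). The difference was 1.56 log2 units, which is 2.96-fold, or 2.89-fold as the ratio of the mean deposited intensities. Its standard error was 0.10 from limma, which draws the spread of a gene towards that of all genes. The spread of CAMK2N1 within groups was small, since only 6.43% of the genes tested had a smaller pooled SD, and the median pooled SD was 0.13 log2 units. A choice on this same comparison can favour genes of small spread, so this is a description and no support for the rise. In RNA from a whole culture, more cells that express a gene and more RNA per cell cannot be told apart.

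**Figure D1:**
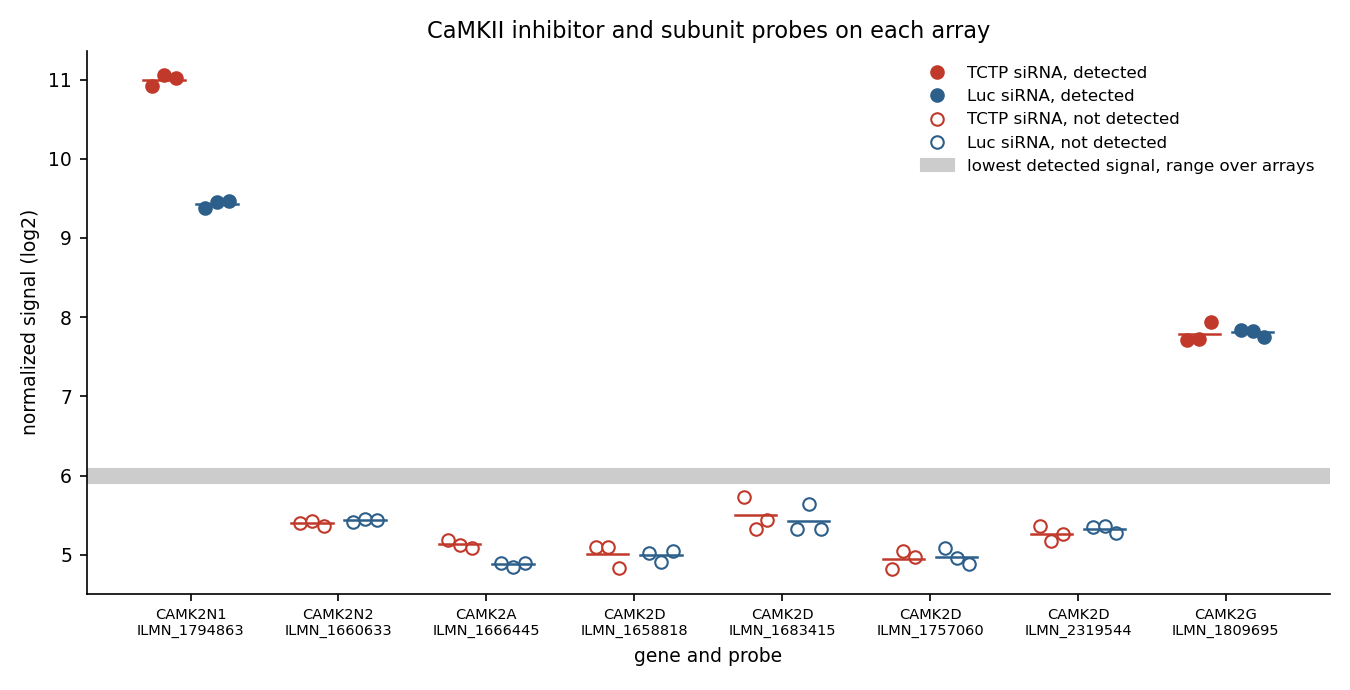
Normalized log2 signal of the 8 probes of CaMKII inhibitor and subunit genes (gene and probe ID on the horizontal axis), 1 point per array, with TCTP siRNA in red left of Luc siRNA in blue and a line at each mean of 3 arrays. Filled points were detected at p under 0.01, and the grey band spans the lowest detected signals of the 6 arrays. CAMK2N1 and CAMK2G were detected on every array, and the other probes lay below the band on all arrays. Heights of different probes are not comparable as amounts of RNA.

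The other inhibitor gene, CAMK2N2, was not detected. Its probe ILMN_1660633 gave 5.40, 5.43 and 5.37 log2 after TCTP siRNA and 5.41, 5.46 and 5.43 log2 after Luc siRNA, with detection p between 0.0435 and 0.1. These groups overlapped, and all 6 values lay below the lowest detected signal of any array, which was between 5.91 and 6.09 log2. No background had been subtracted, so that the intensities of undetected probes are mostly background and only bound the RNA from above. The rise in inhibitor signal was thus measured for CAMK2N1, and a change of CAMK2N2 was not detectable at this sensitivity.

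CAMK2G was the only one detected of the 3 kinase subunit genes with a probe. Its probe ILMN_1809695 had deposited intensities of 204, 177 and 275 units after TCTP siRNA and 258, 231 and 200 units after Luc siRNA. The normalized CAMK2G signals were 7.71, 7.72 and 7.94 log2 after TCTP siRNA and 7.84, 7.83 and 7.76 log2 after Luc siRNA. The groups overlapped, since replicate 3 of TCTP siRNA gave the highest signal of the 6 arrays and the other TCTP siRNA arrays gave the lowest 2. CAMK2G averaged 7.79 ± 0.13 log2 after TCTP siRNA and 7.81 ± 0.05 log2 after Luc siRNA (SD, n = 3 each). The difference of -0.02 log2 units had a standard error of 0.10 and did not pass the test (adjusted p = 0.957 from limma over all genes). Its 95% interval ran from -0.24 to 0.21 log2 units, or from 84.7% to 115% of the Luc siRNA signal. At an adjusted p under 0.05, 1.04% of the 8968 genes tested were higher after TCTP siRNA and 1.52% were lower. Of the 2 members tested CAMK2G was not among them, and CAMK2N1 was chosen from the higher ones.

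CAMK2D, the subunit gene best known from heart muscle, was represented by 4 probes, annotated to the transcript records NM_001221, NM_172115 (a pair of probes) and NM_172128. None was detected on any array. The brightest, ILMN_1683415, gave 5.72, 5.33 and 5.44 log2 after TCTP siRNA and 5.32, 5.64 and 5.32 log2 after Luc siRNA. Its lowest detection p, on replicate 1 of TCTP siRNA, was 0.0145, the closest to the limit of any undetected member. On the other CAMK2D probes every group mean lay between 4.95 and 5.33 log2. Over the 4 probes the differences between groups ran from -0.07 to 0.07 log2 units, and the groups overlapped on each.

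The neuronal subunit gene CAMK2A was also not detected, but its background-level signals separated by group. Its probe ILMN_1666445 gave 5.19, 5.13 and 5.08 log2 after TCTP siRNA and 4.90, 4.84 and 4.89 log2 after Luc siRNA. The detection p lay between 0.264 and 0.465 after TCTP siRNA and between 0.858 and 0.908 after Luc siRNA. CAMK2N1 and CAMK2A were the 2 of 8 member probes whose groups did not overlap. Both were higher after TCTP siRNA, as were 6.75% of all 48803 probes of the array. The separation of CAMK2N1 follows from its choice on this rise, so only that of CAMK2A can be set beside this share. The CAMK2A difference was 0.25 log2 units, and in a fit of all 48803 probes without a detection filter its adjusted p was 0.315 from limma. No level of CAMK2A can be given from a probe at background.

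The CAMK2N1 difference ran from 1.53 log2 units with normexp background correction to 1.62 with median scaling, which is 2.89-fold to 3.08-fold. Other filters, the variance model, the replicate block, the threshold and the choice of probes cannot move this difference of means, and left it at 1.56. Leaving out any single array gave 1.54 to 1.60. The CAMK2G difference stayed between -0.09 and 0.02 log2 units over all settings. It was above 0 with median scaling and without replicate 1 or replicate 2 of TCTP siRNA, and lowest without replicate 3, the array on which CAMK2G was highest.

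**Figure D2:**
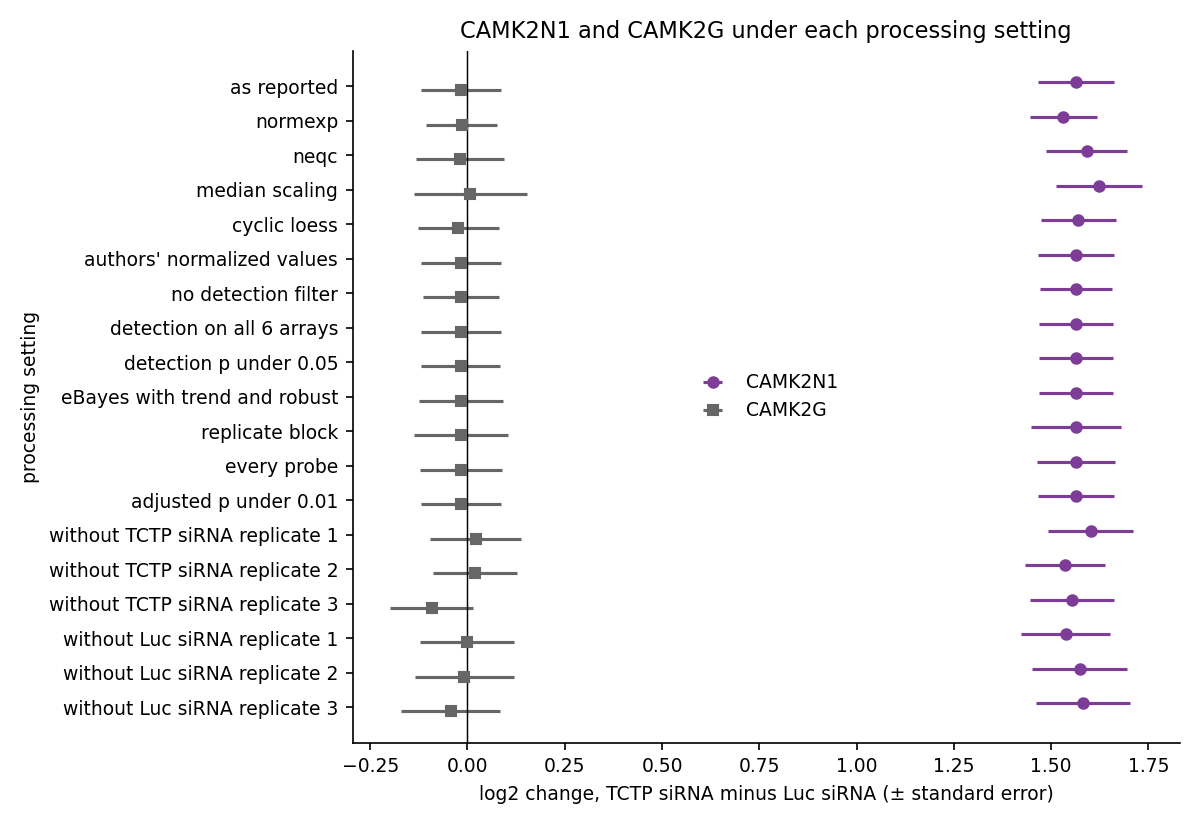
Log2 change, TCTP siRNA minus Luc siRNA (horizontal axis), of CAMK2N1 (circles) and CAMK2G (squares) under each processing setting (vertical axis), with bars of 1 standard error. CAMK2N1 lay between 1.53 and 1.62 and CAMK2G between -0.09 and 0.02.

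The genes whose profiles over the 6 arrays were most like that of CAMK2N1 were found by the root mean square difference of log2 signals, each gene centred on its Luc siRNA mean. They were UGT2B11 and UGT2B15, a pair of enzymes that attach glucuronic acid to steroids, PGAP6, which remodels GPI-anchored proteins, the transmembrane semaphorin SEMA6A and CDKN1A, the CDK inhibitor p21. The root mean square differences from CAMK2N1 ran from 0.445 log2 units for UGT2B11 to 0.537 for CDKN1A. UGT2B11 gave 7.27, 7.53 and 7.45 log2 after TCTP siRNA and 6.43, 6.42 and 6.58 log2 after Luc siRNA. CDKN1A gave 12.27, 11.89 and 12.04 log2 after TCTP siRNA and 11.17, 11.33 and 11.19 log2 after Luc siRNA. The differences of the 5 genes ran from 0.84 to 0.94 log2 units. They were picked on this same comparison and set against the gene with the largest rise, so these values are a description with no test. A further probe of UGT2B11 differed by 0.47 log2 units, and UGT2B genes are so alike that their probes may share signal. These genes are also those with large rises, since the measure follows mainly the difference between the groups. Their deviations within the TCTP siRNA arrays varied more, with SDs of 0.13 to 0.26 log2 units, against 0.07 for CAMK2N1.

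**Figure D3:**
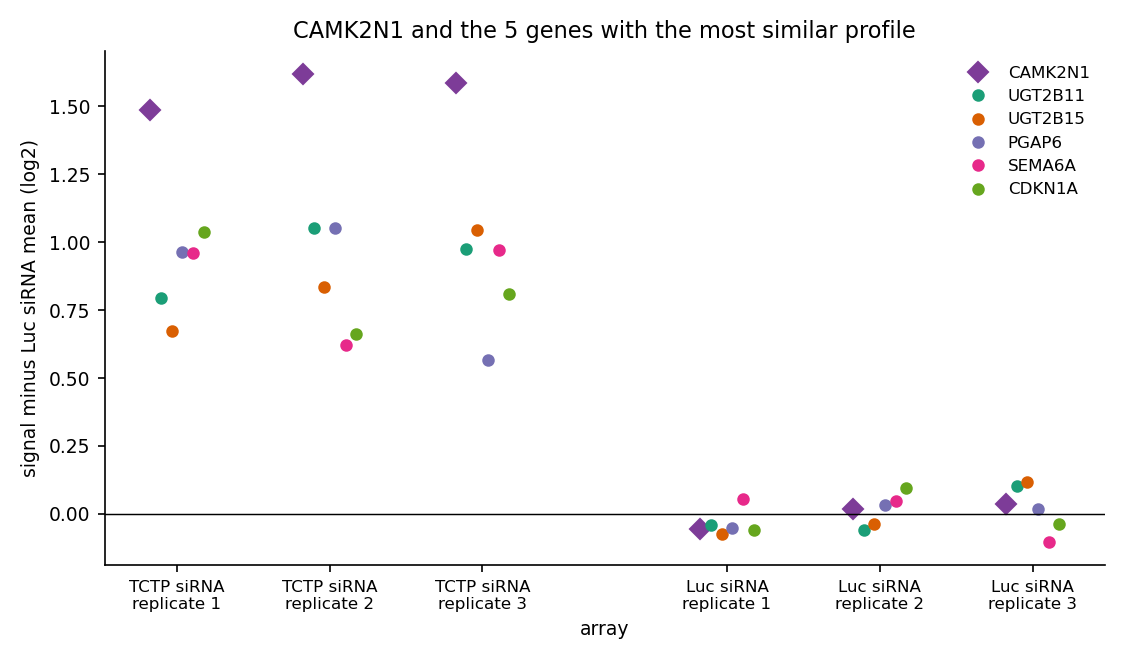
Log2 signal minus the Luc siRNA mean (vertical axis) on each of the 6 arrays for CAMK2N1 (diamonds) and the 5 genes with the most similar profile (circles). On every array of TCTP siRNA the CAMK2N1 diamond lay above the circles of the other 5 genes, and all genes lay near 0 on the Luc siRNA arrays.

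The pathway around CaMKII was described with 7 lists of 97 genes, of which 89 had a probe and 44 were tested. None of the 44 was higher or lower at an adjusted p under 0.05 from limma. Of all genes tested 1.04% were higher and 1.52% lower at this threshold, so a count of none among 44 says little. At an unadjusted p under 0.05, 3 were higher and 4 were lower, which is 15.9% of them, against 15.6% of all genes tested. The median difference of the 44 genes was -0.01 log2 units, against 0.00114 over all genes tested. All 44 differences were below 0.5 log2 units in size, as were those of 98% of all genes tested.

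Upstream of the kinase, 8 genes of the list of calmodulin-like and calmodulin-binding proteins had a probe, and of these only CALML4, a calmodulin-like gene, was detected. It gave 9.23, 9.53 and 9.50 log2 after TCTP siRNA and 9.27, 9.50 and 9.35 log2 after Luc siRNA, with overlapping groups and a difference of 0.04 log2 units (adjusted p = 0.893 from limma). Its other detected probes differed by -0.21 and 0.01 log2 units, and neither passed the test. The calmodulin-binding genes NRGN, PCP4 and GAP43, known from neurons, were detected on no array.

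Calcium channels, stores and pumps were the longest list, with 15 of 27 genes tested and differences between -0.38 and 0.30 log2 units. Its member with the smallest p was ITPR1, the inositol trisphosphate receptor that releases calcium from the endoplasmic reticulum. ITPR1 gave 6.09, 6.00 and 6.19 log2 after TCTP siRNA and 6.50, 6.48 and 6.45 log2 after Luc siRNA. The groups did not overlap, and the difference was -0.38 log2 units (standard error 0.10, adjusted p = 0.0595 from limma). This dim ITPR1 probe passed the detection limit on 2 of 3 TCTP siRNA arrays and on all 3 of Luc siRNA. ITPR1 passed the threshold with neqc (adjusted p = 0.0366) and without replicate 3 of TCTP siRNA (0.0482). Its adjusted p ran from 0.0366 to 0.301 over the 17 settings that held it, and the filter that asks for detection on all 6 arrays left it out.

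Of the other calmodulin-dependent kinases 6 of 18 were tested, with differences between -0.06 and 0.28 log2 units. CAMKK2 encodes the kinase that activates CaMKI, CaMKIV and AMP-activated kinase and is known as an androgen-responsive gene in prostate cells. It gave 6.20, 6.31 and 5.92 log2 after TCTP siRNA and 6.15, 6.22 and 6.24 log2 after Luc siRNA (adjusted p = 0.858 from limma). The groups overlapped, with the lowest signal on replicate 3 of TCTP siRNA. CASK, a membrane scaffold with a CaMKII-like domain, had the smallest p of this list, with a difference of 0.28 log2 units (standard error 0.10, adjusted p = 0.189 from limma). Its groups did not overlap, at 7.44, 7.30 and 7.49 log2 after TCTP siRNA and 7.24, 7.07 and 7.08 log2 after Luc siRNA.

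All 6 tested phosphatases that can act on CaMKII lay within -0.25 and 0.06 log2 units of no difference. PPM1F, which removes the activating phosphate from CaMKII, had the smallest p, with 8.16, 8.52 and 8.28 log2 after TCTP siRNA and 8.69, 8.46 and 8.51 log2 after Luc siRNA (adjusted p = 0.364 from limma). The groups overlapped through replicate 2 of TCTP siRNA, and without replicate 1 of TCTP siRNA the difference was -0.15 in place of -0.23 log2 units. Calcineurin, the phosphatase that is also driven by calmodulin, and its targets had 9 of 13 genes tested, with differences between -0.06 and 0.27 log2 units. In that list RCAN3, a regulator of calcineurin, gave 6.94, 6.95 and 6.73 log2 after TCTP siRNA and 6.47, 6.74 and 6.60 log2 after Luc siRNA (adjusted p = 0.25 from limma).

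Downstream of CaMKII 6 of 18 substrates and factors were tested. HDAC4, a histone deacetylase that leaves the nucleus when CaMKII phosphorylates it, had the smallest p of these. It gave 6.31, 6.35 and 6.54 log2 after TCTP siRNA and 7.05, 6.62 and 6.57 log2 after Luc siRNA, a difference of -0.34 log2 units (standard error 0.13, adjusted p = 0.211 from limma). The groups were apart by only 0.0311 log2 units, and without replicate 1 of Luc siRNA, its highest array, the difference was -0.19 log2 units (adjusted p = 0.567, over a range of 0.139 to 0.567). MEF2A and MEF2D, transcription factors that HDAC4 represses, had differences of -0.06 and 0.03 log2 units.

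Inhibitors of another kinase, protein kinase A, were listed beside CAMK2N1, and of these PKIB alone was detected. PKIB gave 7.30, 7.62 and 7.18 log2 after TCTP siRNA and 7.75, 7.87 and 7.84 log2 after Luc siRNA. The groups did not overlap, with a difference of -0.45 log2 units, of opposite sign to that of CAMK2N1 (standard error 0.12, adjusted p = 0.0693 from limma). Without replicate 2 of TCTP siRNA, on which PKIB was highest within its group, the adjusted p was 0.0107, and over all settings it ran from 0.0107 to 0.248.

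**Figure D4:**
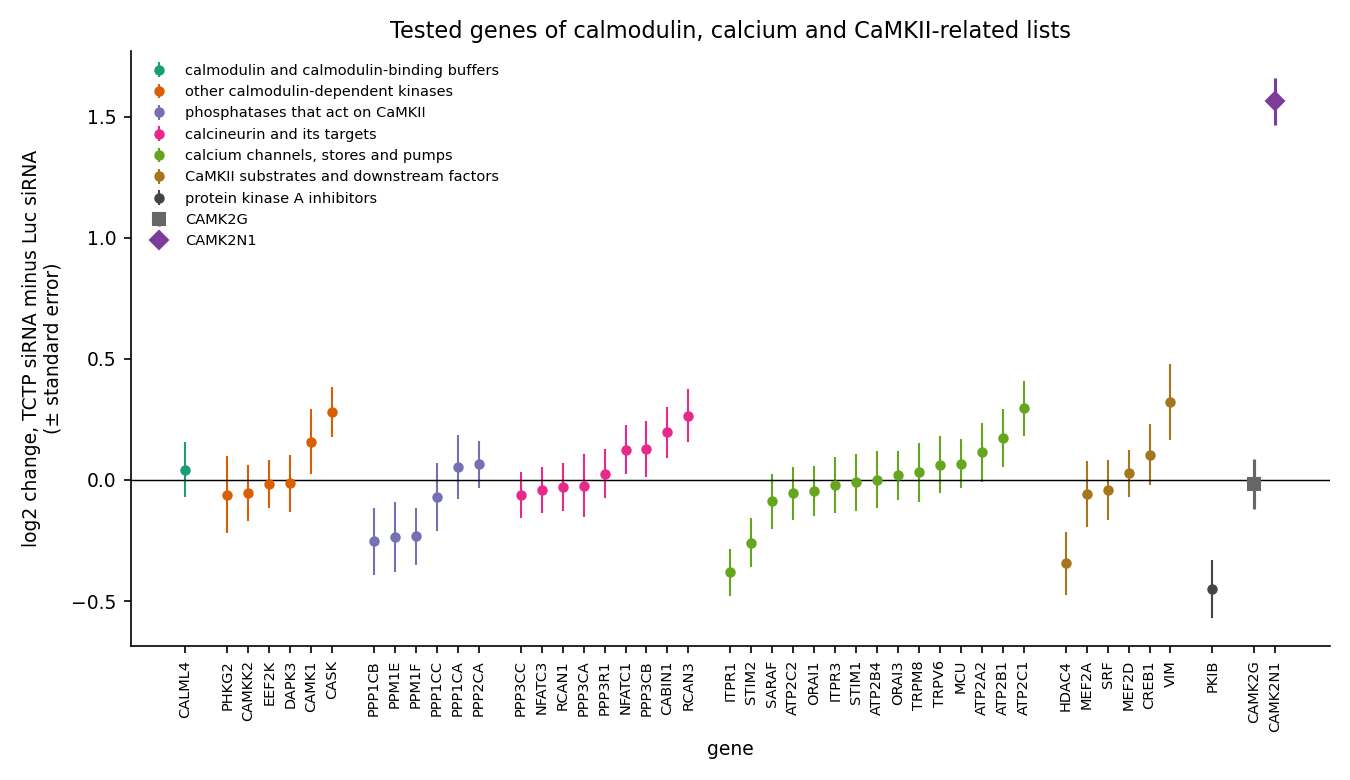
Log2 change, TCTP siRNA minus Luc siRNA (vertical axis), of the 44 tested genes in 7 lists (colours) and of CAMK2G and CAMK2N1, with bars of 1 standard error. The listed genes lay between -0.45 and 0.32, and CAMK2N1 stood at 1.56.

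CAMK2N1, CAMK2A and CAMK2B are abundant in neurons, so markers of neuronal and neuroendocrine cells were set beside them. Of 6 such markers 5 had a probe, and only ENO2, a glycolytic enzyme of neurons, was detected. ENO2 gave 8.37, 7.76 and 7.78 log2 after TCTP siRNA and 7.12, 7.56 and 7.25 log2 after Luc siRNA, a difference of 0.66 log2 units (standard error 0.16, adjusted p = 0.0512 from limma). The groups did not overlap, and ENO2 passed the threshold in 4 of 18 settings, over a range of adjusted p from 0.0301 to 0.26. The defining markers CHGA, SYP, NCAM1 and MAP2 were detected on 0 of the 6 arrays. The summed deposited intensity of all probes of the list was 532 to 671 units after TCTP siRNA and 523 to 604 units after Luc siRNA, which overlap. These sums are not normalized and take in the undetected probes, which are mostly background, so that they say little of ENO2. Luminal markers were set beside CAMK2N1 too, and of the 7 with a probe none passed the test. Of all genes tested 1.04% were higher and 1.52% lower, so this count says little. TMPRSS2, an androgen-regulated protease of luminal cells, gave 11.73, 11.65 and 11.51 log2 after TCTP siRNA and 12.21, 12.00 and 11.95 log2 after Luc siRNA, a difference of -0.42 log2 units (standard error 0.11, adjusted p = 0.0605 from limma). It passed with normexp (0.0476) and with trend and robust (0.0359), over a range of 0.0359 to 0.33. KLK2, a kallikrein of the same cells, gave 8.27, 7.92 and 8.08 log2 after TCTP siRNA and 8.44, 8.60 and 8.31 log2 after Luc siRNA (adjusted p = 0.138 from limma). In both genes the groups did not overlap, as was so for ITPR1, HDAC4 and PKIB above. The share of all probes that were lower without overlap was not counted, so these separations have no share to be set against. The other 5 luminal genes differed by -0.03 to 0.05 log2 units on their brightest probes. Of these KLK3 was imprecise and its probe dim, with 5.98, 6.90 and 6.36 log2 after Luc siRNA and detection p up to 0.00791. With 1 array left out its difference ran from -0.20 to 0.26 log2 units. Further probes of FOLH1 and KRT18 differed by -0.28 to 0.30 log2 units, and none of them passed the test. The summed deposited intensity of the luminal list, also not normalized, was 11170 to 13480 units after TCTP siRNA and 12870 to 15440 units after Luc siRNA. The part of either marker list in the CAMK2N1 result was not tested.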

How the data were processed

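RNA of 6 LNCaP samples was measured on Illumina HumanWG-6 v3 arrays. With BeadStudio, whose version is not given in the sources used, the authors made and deposited probe intensities, neither normalized nor background-subtracted, with a detection p-value per probe and array. The deposited quantile-normalized intensities served as an alternative, and differed by at most 0.0293 log2 units from those computed here.

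Intensities were quantile-normalized and log2-transformed (limma 3.58.1, R 4.3.3). Probes were kept (13484) where at least 3 of 6 arrays had a detection p under 0.01. Symbols came from the platform annotation, updated by gene identifier to GRCh38.p14 names. Of all probes 27578 had 1 symbol, 13 several and 21212 none listed. The brightest kept probe represented a gene (8968). Groups were compared with lmFit and eBayes, with Benjamini-Hochberg adjustment over all genes, or over all kept probes for the second TPT1 probe. The fit was tested on simulated data. Replicates are described as biological, and whether cultures were separate is not given, so that p-values measure the spread between these samples. The number of arrays limits precision, and no batch was given.

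The members, lists and tests were chosen with earlier results of these data known. The text names all member probes, TPT1, CAMKK2, the 5 genes nearest to CAMK2N1 and, from each list, up to 4 called genes or else that with the smallest p. ENO2, KLK2, KLK3, TMPRSS2, FOLH1, KRT18, NRGN, PCP4, GAP43, MEF2A, MEF2D and the undetected neuronal markers were named after their values were seen. Alternatives were normexp (offset 50), neqc (offset 16), median scaling, cyclic loess, the authors' values, other detection filters, every probe, eBayes with trend and robust, the replicate block, an adjusted p under 0.01 and each array left out. No set test was made, and SAM and Feature Subset Selection, which the methods name, were not run. Figures used matplotlib 3.10.9 in Python 3.11.15.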

Additional observations from a re-analysis of the deposited data

How the results depend on the processing

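The CAMK2N1 difference was 1.53 to 1.62 log2 units over those settings that can move it, where the SD between replicates was 0.068 after TCTP siRNA and 0.049 after Luc siRNA. CAMK2G did not pass the test in any of the 18 settings. The CAMK2A difference fell to 0.14 log2 units with normexp and 0.11 with neqc. The number of all genes called moved more. With median scaling 17 genes were higher and 35 lower, in place of 93 and 136, and at an adjusted p under 0.01 they were 33 and 56. Leaving out 1 array gave 30 to 151 higher and 53 to 173 lower genes, with the lowest counts without Luc siRNA replicate 2 (higher) and TCTP siRNA replicate 1 (lower) and the highest without TCTP siRNA replicate 2. With the replicate block 45 were higher and 73 lower. Same-numbered arrays did not deviate together (correlations of -0.0711, -0.0584 and -0.396 over genes), while those of differently numbered arrays ran from -0.359 to 0.489, and no array correlated best with its own number. The positive values joined TCTP siRNA replicates 1, 2 and 3 to Luc siRNA replicates 2, 3 and 1, at 0.253, 0.489 and 0.438. All other values were negative, and what the positive ones reflect was not tested. Whether the numbers pair samples cannot be told from these correlations, and the main comparison used no pairing. The count of called genes over the pathway lists was 1 with neqc (ITPR1), and 0 to 1 with an array left out (PKIB or ITPR1). The cause of these changes was not tested. Probes at background limit what can be said of CAMK2N2, CAMK2A and CAMK2D.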
